A study of Oryza sativa Japonica Group with 24 samples.

Results

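The genes described here followed a 24-h curve closely in anthers under both short-day (SD) and long-day (LD) conditions, called a daily rhythm below. The clock times sampled make up a single 24-h cycle, so whether a curve recurs from day to day was not tested. A 24-h cosine was fitted by clock hour to log2(CPM + 1), where CPM is a locus's count scaled to the library total, once over the 12 SD libraries and once over the 12 LD libraries. Of 55986 loci in the count table, 16484 had a mean of at least 5 CPM, and 836 of these (5.07%) also had a peak-to-trough difference of the cosine of at least 1 log2 unit in both photoperiods. The 200 genes with the highest value of the smaller of both R2 values (the share of a gene's variance that the cosine accounts for) were taken as members, and the other 636 genes past the minimums were set beside them. R2 and the peak-to-trough difference therefore chose the members and are given as description. The smaller R2 of a member lay between 0.706 and 0.958, with a median of 0.807. At the edge of the choice, it was 0.707 and 0.706 for the last members (LOC_Os03g18870 and LOC_Os01g56680), and 0.705 and 0.704 for the next genes outside (LOC_Os09g26900 and LOC_Os01g01340).

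Anthers came from wild-type plants of *japonica* rice variety 9522 grown in paddy fields, at the stage that the labels call mitosis I. For SD, black cloth shut out the evening light of the last 2 h before nightfall, so that the plants had 12 h of light a day, while LD plants stood uncovered under a natural day of about 14 h. The treatment began after panicle initiation, and the deposited design text, which describes LD as hours of dark, was not followed on this point. Samples were taken at 6 clock times, 4 h apart, given here from 08:00 to 04:00, with 2 biological replicates in each of the 12 groups of photoperiod and time point and so 24 libraries.

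In plants, the circadian clock is a set of transcription factors that repress and activate each other through the day, so that their transcripts peak one after another from dawn to night. Light at dawn and dusk sets the clock, and the clock in turn times the transcripts of light-harvesting proteins, enzymes of starch and lipid metabolism, and water channels. In rice the same genes take part in measuring day length for flowering. A cosine fit gives each gene a peak time on the clock, and a difference in peak time between photoperiods can come from a shift of the daily curve or from a change in its shape.

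Library totals were between 18459126 and 27529649 counts in SD and between 18043740 and 23293969 counts in LD, with 28171 to 29547 loci detected in a library. Over all genes, 14 of the 24 libraries correlated best with the replicate of their own group. The read numbers that the study gives per library follow the total counts among SD libraries. In LD, the totals at each clock time instead follow the read numbers given for the clock time 4 h earlier, in both replicates. Which LD clock times are right was not tested. With those of the read numbers, every LD peak would come 4 h earlier, and each contrast at a clock time would use other LD libraries. Of 51 loci that the study lists as high in anthers, 29 averaged at least 1 CPM in SD and 43 in LD, and their summed level per library ran from 809 to 3564 CPM in SD and from 727 to 4842 CPM in LD. *OsABCG15* and *OsLAP6*, genes of pollen wall formation that the tapetum expresses, lay far apart, with *OsABCG15* at a mean of 27.9 CPM in SD and 0.443 CPM in LD, and *OsLAP6* at 456 CPM in SD and 7.82 CPM in LD. The pollen gene *OsMATL* averaged 8.27 CPM in SD and 49.1 CPM in LD, and the part of stage or cell makeup in the results below was not tested. The study took the 51 anther loci, with *OsABCG15* and *OsLAP6* among them, from genes it called different by photoperiod at every sampled hour. That call was made in these same libraries, so the gap of these loci between photoperiods is part of their choice. Nothing on stage or cell makeup is read from that gap. In whole anthers, fewer cells of a type and less RNA per cell cannot be told apart.

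Most members peaked later on the clock in SD than in LD. The peak time, SD minus LD, had a median of 1.44 h over the 200 members, with quartiles of −0.21 and 2.95 h. The peak was later in SD in 144 members and earlier in 56. Against the standard error of each gene's own difference, 100 members were later in SD by more than 2 standard errors, 27 were earlier by more than 2, and 73 lay within 2. In 101 members both photoperiods peaked within 2 h of each other, and in 49 the SD peak came at least 3 h later, against 15 in which it came at least 3 h earlier. Among the 636 other genes past the minimums, 42.0% had a later peak in SD, and 60.8% peaked at least 6 h apart in SD and LD, against 9% of the members. Members share their libraries, so no p was computed over genes for these counts. The differences use the LD clock times of the count table, and the doubt of 4 h given above is larger than the median difference.

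**Figure D1:**
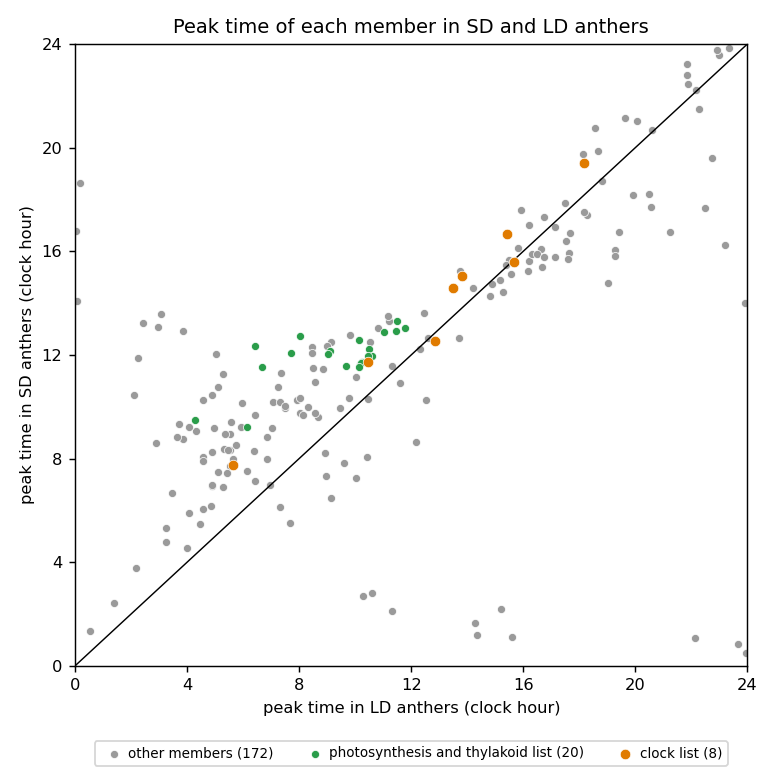
Peak time of each of the 200 members in SD anthers (vertical axis, clock hour) against its peak time in LD anthers (horizontal axis, clock hour), with the line of equal peak times. Points left of the middle of the day in LD lie mostly above the line, and the 18 members at least 6 h apart lie far from it (the axes wrap at 24 h). *OsCAB1R*, which is on both lists, is drawn with the clock list.

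Members that peaked before noon in LD had the longest delays in SD. Among members with an LD peak from 4 to 8 h, 53 of 55 peaked later in SD, with a median of 2.86 h. The count was 17 of 20 for LD peaks from 0 to 4 h (median 4.04 h) and 39 of 50 for LD peaks from 8 to 12 h (median 1.50 h). Genes of the afternoon and evening differed less. The SD peak was later in 15 of 26 members with an LD peak from 12 to 16 h (median 0.12 h), in 8 of 29 with an LD peak from 16 to 20 h (median −0.67 h), and in 12 of 20 with an LD peak from 20 to 24 h (median 0.30 h). The LD peak time enters both the windows and the difference, so an error in it moves a gene in both. Over the 70 members with an LD peak from 14 to 2 h, the median was −0.18 h, and it changed sign to 0.38 h without the 12:00 libraries.

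**Figure D2:**
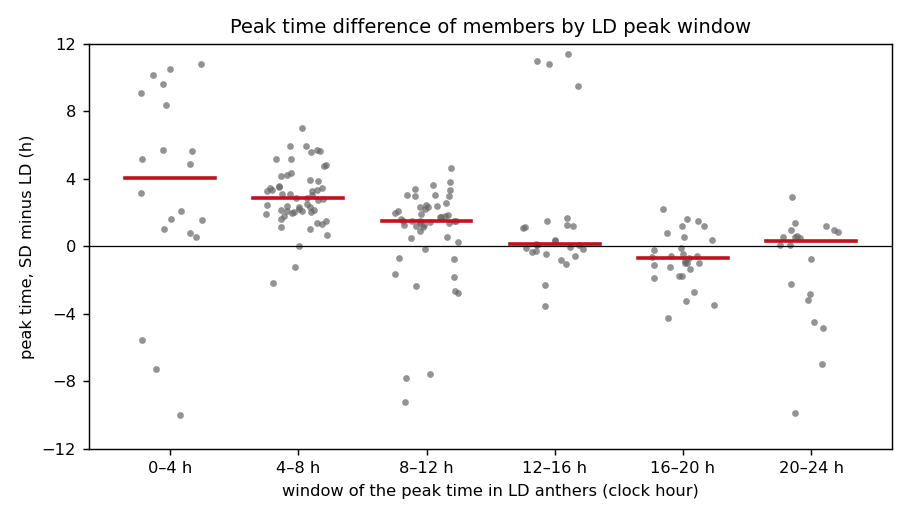
Difference in peak time, SD minus LD, in hours (vertical axis) for each member, by window of its LD peak time (horizontal axis). Red bars are medians, which stand at 4.04, 2.86 and 1.50 h in the windows before noon and between −0.67 and 0.30 h after it.

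The group means show the same pattern without a fitted curve. The highest SD group mean was at 08:00 in 33 members, at 12:00 in 95, at 16:00 in 33, at 20:00 in 18, at 00:00 in 2 and at 04:00 in 19. The highest LD group mean was at 08:00 in 56 members, at 12:00 in 24, at 16:00 in 47, at 20:00 in 4, at 00:00 in 15 and at 04:00 in 54. The commonest pairs were 12:00 in SD with 08:00 in LD (44 members), 12:00 in SD with 04:00 in LD (26 members), 16:00 in both (25 members), and 08:00 in SD with 04:00 in LD (18 members). With samples 4 h apart, a shift of 1 to 2 h is read from the shape of the curve and not from the sampled maximum.

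Loci of the study's circadian sheet held 8 of the 200 places and are called clock members below. The study's circadian sheet lists 12 loci, and its members were *OsCCA1/OsLHY*, *OsCAB1R*, *OsPRR95*, *OsPRR73*, *OsPRR37*, *OsGI*, *OsFKF1* and *OsLUX*. Of these, *OsCAB1R* is a gene that the study calls clock-controlled, and it is also counted with the photosynthesis members below. The median difference in peak time of these 8 was 1.21 h, and 6 of the 8 peaked later in SD. The delay was more than 2 standard errors in 3 (*OsCCA1/OsLHY*, *OsGI* and *OsCAB1R*). Averaged over the day, 7 of the 8 were up-regulated and 1 was down-regulated in SD (background 58.4% of 25498 genes tested, 29.0% up-regulated and 29.3% down-regulated, edgeR adjusted p below 0.05), and the mean log2 CPM was higher in SD in 7 of the 8 both by library totals and by TMM factors.

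*OsCCA1/OsLHY* (LOC_Os08g06110) encodes the MYB transcription factor of the morning, and it had the highest smaller R2 of the 836 genes past the minimums. In SD anthers it had 635 and 743 CPM at 08:00, 477 and 512 by 12:00, 44.7 and 40.1 by 16:00, 30.9 and 30.1 by 20:00, 79.6 and 55.5 by 00:00, and 533 and 435 by 04:00. In LD anthers it had 814 and 658 CPM at 08:00, 71.5 and 71.4 by 12:00, 9.51 and 15.0 by 16:00, 12.6 and 21.9 by 20:00, 119 and 98.6 by 00:00, and 944 and 852 by 04:00. The transcript was thus high at 08:00 in both photoperiods, still high at 12:00 in SD but not in LD, and higher at 04:00 in LD. It peaked at 7.74 ± 0.267 h in SD and 5.63 ± 0.143 h in LD (± SE), a difference of 2.11 ± 0.303 h. The rule did not use the contrast of SD with LD at a time point, and in that contrast the gene was up-regulated in SD at 12:00 (log2 fold change of SD over LD, hereafter log2FC, with its SE: 2.51 ± 0.13, edgeR adjusted p = 2.98e-05) and down-regulated at 04:00 (log2FC −1.06 ± 0.16, edgeR adjusted p = 0.00782), while the difference at 08:00 was not called (log2FC −0.22 ± 0.24, edgeR adjusted p = 0.555).

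Among the pseudo-response regulators, which in *Arabidopsis* repress *CCA1* and *LHY* through the day, *OsPRR95* (LOC_Os09g36220) had the largest difference at 12:00. It had 296 and 274 CPM in SD anthers at 12:00, against 50.9 and 62.7 CPM in LD anthers (log2FC 2.04 ± 0.17, edgeR adjusted p = 0.000175), and 114 and 106 CPM in SD anthers at 16:00, against 86.4 and 73.6 CPM in LD anthers. Its highest time was thus 12:00 in SD and 16:00 in LD, although the fitted peaks were at 12.5 ± 0.451 h in SD and 12.9 ± 0.532 h in LD, a difference of −0.318 ± 0.698 h. *OsPRR73* (LOC_Os03g17570) had 134 and 127 CPM in SD anthers at 08:00, against 260.0 and 227 CPM in LD anthers (log2FC −1.02 ± 0.19, edgeR adjusted p = 0.00955), and 241 and 244 CPM in SD anthers at 20:00, against 128 and 135 CPM in LD anthers. It was thus lower in SD in the morning, and its peaks were at 14.6 ± 0.365 h in SD and 13.5 ± 0.433 h in LD. *OsPRR37* (LOC_Os07g49460), a regulator of heading date in rice, kept a higher level through the night in SD, with 62.5 and 39.0 CPM in SD anthers at 00:00, against 9.92 and 14.1 CPM in LD anthers, and 46.7 and 60.4 CPM in SD anthers at 04:00, against 12.6 and 14.4 CPM in LD anthers (log2FC 1.82 ± 0.18, edgeR adjusted p = 0.00332). Its peak-to-trough difference was 1.52 ± 0.28 log2 units in SD and 3.23 ± 0.37 in LD, and its peak times differed by 1.21 ± 0.837 h, within 2 standard errors.

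The evening genes peaked in the order *OsFKF1*, *OsGI*, *OsLUX* in SD, and *OsFKF1* and *OsGI* lay within their errors of each other in LD. *OsGI* (LOC_Os01g08700), whose protein links the clock to flowering, had 131 and 123 CPM at 08:00, 585 and 566 by 12:00, 712 and 739 by 16:00, 850.4 and 864 by 20:00, 251 and 126 by 00:00, and 101 and 91.4 by 04:00 in SD anthers. In LD anthers it had 162 and 142 CPM at 08:00, 556 and 586 by 12:00, 1115 and 1087 by 16:00, 457 and 487 by 20:00, 76.3 and 70.5 by 00:00, and 28.3 and 35.3 by 04:00. The plateau in SD reached 20:00, whereas the LD level was highest at 16:00, and the peaks were at 16.7 ± 0.371 h in SD and 15.4 ± 0.177 h in LD, a difference of 1.26 ± 0.411 h. *OsGI* was up-regulated in SD at 04:00 (log2FC 1.43 ± 0.15, edgeR adjusted p = 0.00368). *OsFKF1* (LOC_Os11g34460), which encodes a blue-light receptor with an F-box, peaked at 15.6 ± 0.276 h in SD and 15.7 ± 0.273 h in LD, and the difference of −0.0592 ± 0.388 h was within its error. It had 66.4 and 70.0 CPM in SD anthers at 16:00, against 122 and 115 CPM in LD anthers, and 7.95 and 6.88 CPM in SD anthers at 08:00, against 2.47 and 1.49 CPM in LD anthers (log2FC 1.78 ± 0.32, edgeR adjusted p = 0.00869). *OsFKF1* thus had a shallower curve in SD, with a peak-to-trough difference of 3.84 ± 0.28 log2 units in SD and 6.26 ± 0.45 in LD. *OsLUX* (LOC_Os01g74020), in *Arabidopsis* a component of the evening complex, had 9.36 and 11.6 CPM in SD anthers at 16:00, against 28.2 and 29.8 CPM in LD anthers, and 10.8 and 12.3 CPM in SD anthers at 20:00, against 11.8 and 11.4 CPM in LD anthers. Its SD libraries were below its LD libraries at 16:00 and overlapped with them at 20:00, and its peaks were at 19.4 ± 0.395 h in SD and 18.2 ± 0.505 h in LD, a difference of 1.21 ± 0.641 h.

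Peak-to-trough differences were larger in LD in 6 of the 8 clock members, by more than 2 standard errors in 4 (*OsCCA1/OsLHY*, *OsGI*, *OsFKF1* and *OsPRR37*). They were larger in SD by more than 2 standard errors in 1, *OsPRR95*, at 3.67 ± 0.43 log2 units in SD and 2.46 ± 0.34 in LD. Over all 200 members, 15 were larger in SD by more than 2 standard errors and 30 were larger in LD, and the median was 2.02 log2 units in SD and 2.29 in LD. The 4 clock loci outside the members missed the minimum on the peak-to-trough difference. *OsTOC1/OsPRR1* (LOC_Os02g40510) was just under it, with 0.97 ± 0.17 log2 units in SD and 2.56 ± 0.28 in LD, and it peaked at 17.7 ± 0.685 h in SD and 17.1 ± 0.423 h in LD. It was up-regulated in SD at 08:00 (log2FC 1.28 ± 0.20, edgeR adjusted p = 0.00590), with 23.9 and 28.8 CPM in SD anthers at 08:00, against 11.2 and 8.79 CPM in LD anthers. *OsELF3* (LOC_Os06g05060), *OsZTL1* (LOC_Os02g05700) and *OsZTL2* (LOC_Os06g47890) were nearly flat, with peak-to-trough differences of 0.50 ± 0.25, 0.54 ± 0.16 and 0.06 ± 0.06 log2 units in SD, and 0.14 ± 0.13, 0.28 ± 0.10 and 0.22 ± 0.12 in LD.

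**Figure D3:**
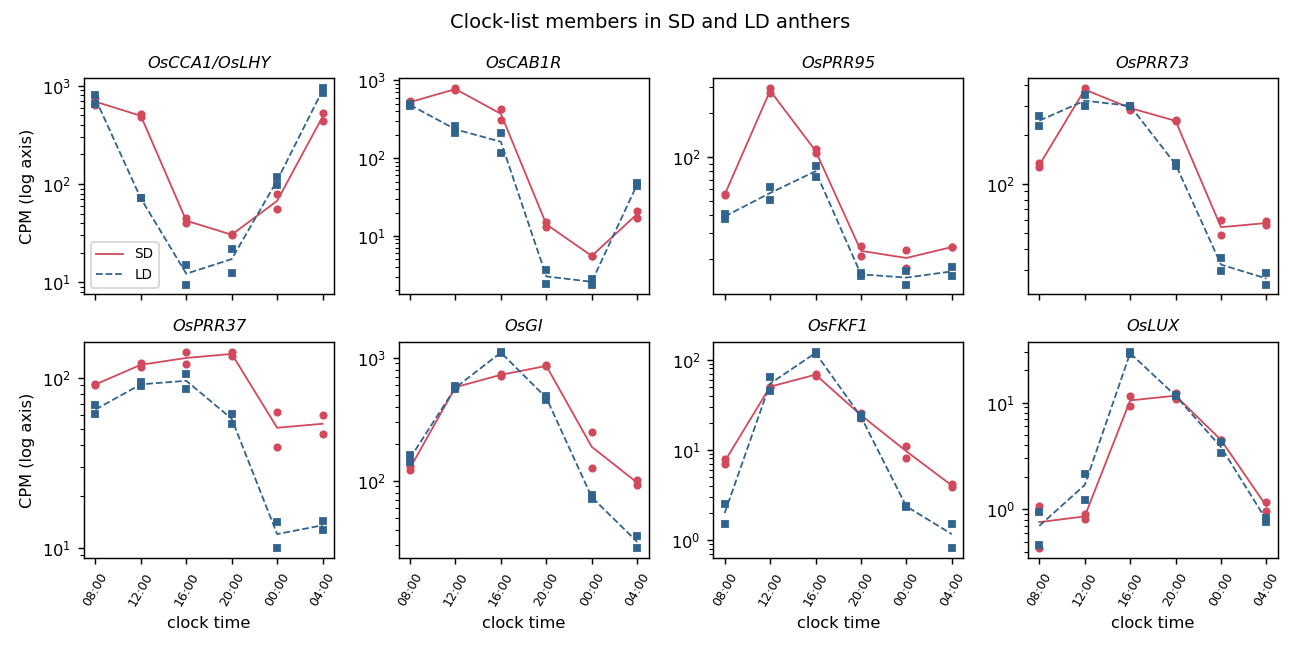
Level of the 8 clock-list members in CPM (vertical axes, log scale, separate for each gene) at the 6 clock times (horizontal axes). Points are single libraries, circles for SD and squares for LD, and lines join the means of both libraries (solid for SD, dashed for LD). At 12:00 the SD and LD libraries of *OsCCA1/OsLHY*, *OsCAB1R*, *OsPRR95*, *OsPRR73* and *OsPRR37* lie apart, with SD higher. Those of *OsLUX* lie apart with LD higher.

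Photosynthesis genes formed the largest named group of members. Of 62 loci to which the study's gene ontology sheets give the terms photosynthesis or thylakoid, 30 passed the minimums and 21 were members. The study drew those sheets from genes that differed between SD and LD in these same libraries, so the list is no independent evidence of a difference in level. Each of the 21 peaked later in SD than in LD, by 1.29 to 5.95 h (median 1.84 h), and 20 of them by more than 2 standard errors. Their median peak was at 12.0 h in SD and 10.1 h in LD. The 9 other loci of the list that passed the minimums also peaked later in SD. The highest group mean was at 12:00 in SD in 20 of the 21, and at 08:00 in LD in 19.

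Levels stayed high through midday in SD, and in LD they were already above those of SD before dawn. The summed level of the 21 genes was 7470 and 8645 CPM in SD anthers at 12:00, against 1818 and 2220 CPM in LD anthers. At 04:00 it was 758 and 735 CPM in SD anthers, against 1516 and 1174 CPM in LD anthers. At 08:00, by contrast, it was 5455 and 4857 CPM in SD anthers and 3953 and 4444 CPM in LD anthers, closer than at 12:00. In each of the 21 genes both SD libraries were above both LD libraries at 12:00, and in 20 both were below at 04:00. The same held for all 21 at 16:00 as at 12:00, with a summed level of 3867 and 5056 CPM in SD anthers, against 2325 and 1301 CPM in LD anthers. At 16:00, however, edgeR called 0 of the 21, as it called no gene at that time. All 21 were up-regulated in SD at 12:00 (background 20.4% of 23858 genes tested were up-regulated, edgeR adjusted p below 0.05 and at least 2-fold), 9 were down-regulated at 04:00 (background 11.8% of 23332) and 13 up-regulated at 20:00 (background 1.23% of 23487). In the whole list, 48 of the 59 loci tested were up-regulated and 1 was down-regulated at 12:00, and 1 was up-regulated and 21 were down-regulated at 04:00. These counts have the same direction by library totals, by which all 21 members were higher in SD at 12:00 and 1 of the 21 at 04:00.

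*OsCAB1R* (LOC_Os09g17740), a chlorophyll a/b-binding protein of the light-harvesting antenna, is on both lists and had the largest peak-to-trough difference of the named members, 7.72 ± 0.42 log2 units in SD and 7.54 ± 0.76 in LD. In SD anthers it had 552 and 501 CPM at 08:00, 755 and 794 by 12:00, 313 and 431 by 16:00, 13.2 and 15.0 by 20:00, 5.48 and 5.59 by 00:00, and 17.2 and 21.0 by 04:00. In LD anthers it had 467 and 502 CPM at 08:00, 210.3 and 259 by 12:00, 208 and 118 by 16:00, 3.65 and 2.38 by 20:00, 2.77 and 2.37 by 00:00, and 47.9 and 43.9 by 04:00. Morning levels at 08:00 overlapped, the libraries separated at 12:00 with SD higher (log2FC 1.43 ± 0.18, edgeR adjusted p = 0.000843), and they separated at 04:00 with LD higher (log2FC −1.43 ± 0.15, edgeR adjusted p = 0.00384). It peaked at 11.7 ± 0.208 h in SD and 10.4 ± 0.387 h in LD, a difference of 1.29 ± 0.439 h.

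**Figure D4:**
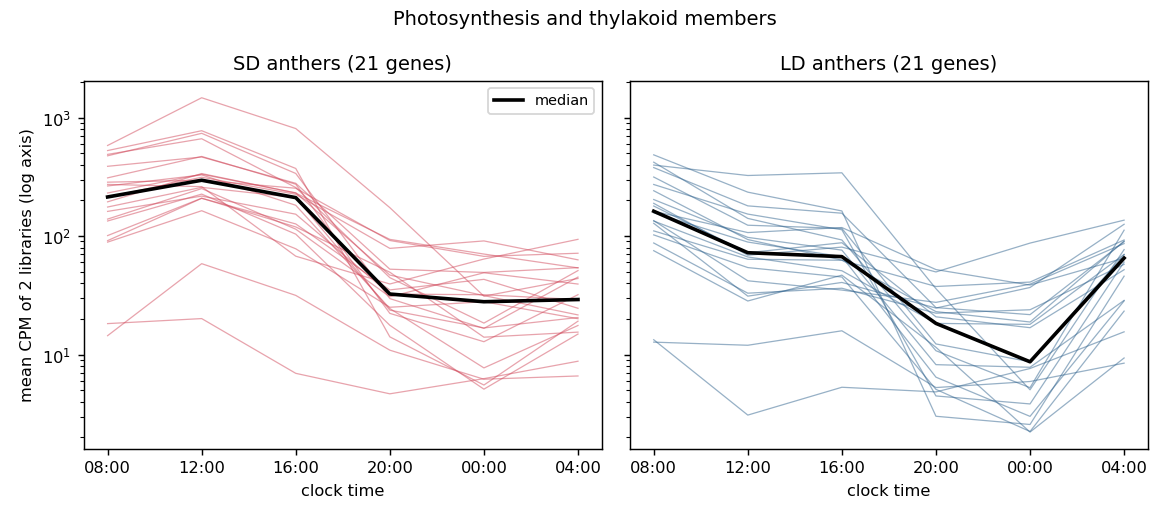
Mean CPM of 2 libraries (vertical axis, log scale) of each of the 21 photosynthesis and thylakoid members at the 6 clock times, in SD anthers (left) and LD anthers (right), with the median in black. The median is highest at 12:00 in SD (296 CPM) and at 08:00 in LD (162 CPM), and at 04:00 it is 29.1 CPM in SD and 65.2 CPM in LD.

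Members were 200 of the 16484 loci with a mean of at least 5 CPM. Of loci at that level, the study's transport sheet held 5 members of 469, its lipid sheet 3 of 172 and its carbohydrate sheet 2 of 327. None of its 30 transcription factor loci (28 at that level) and none of its 51 anther loci (40 at that level) was a member. Nothing is read from these low counts. The transport, lipid, carbohydrate and anther sheets hold genes that the study called different between SD and LD in these same libraries. In all, 23 members had a name or description in the sources used here and 177 had none. The members lay on all 12 chromosomes, with 7 to 33 on each. The 172 members on neither the clock nor the photosynthesis list had a median difference in peak time of 1.20 h, and 118 of them peaked later in SD.

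For named members of starch, cell wall and lipid metabolism, the direction was in part fixed by the naming. The acyl carrier protein, *OsFAD7* and LTPL124 were named for a later SD peak, and a GDSL-like lipase for an earlier one. Nothing is read from their direction. The beta-amylase and the polygalacturonase were named by other rules and peaked later in SD. The beta-amylase LOC_Os10g41550, an enzyme class that breaks down starch, had 48.3 and 43.5 CPM in SD anthers at 12:00, against 9.24 and 7.47 CPM in LD anthers (log2FC 2.18 ± 0.14, edgeR adjusted p = 5.23e-05), and 104 and 84.8 CPM in SD anthers at 04:00, against 96.4 and 73.5 CPM in LD anthers. Its levels thus overlapped at 04:00 and lay apart at 12:00, with peaks at 3.77 ± 0.647 h in SD and 2.18 ± 0.443 h in LD. The polygalacturonase LOC_Os05g20020, of a class that cleaves pectin, had 24.1 and 24.7 CPM in SD anthers at 12:00, against 2.16 and 3.09 CPM in LD anthers (log2FC 2.91 ± 0.23, edgeR adjusted p = 0.000130), and it peaked 1.89 ± 0.588 h later in SD. The acyl carrier protein LOC_Os11g31900, which holds growing acyl chains in fatty acid synthesis, had 36.5 and 38.8 CPM in SD anthers at 12:00, against 6.16 and 5.19 CPM in LD anthers (log2FC 2.45 ± 0.14, edgeR adjusted p = 3.53e-05), and 21.6 and 15.0 CPM in SD anthers at 04:00, against 33.1 and 28.1 CPM in LD anthers (log2FC −0.91 ± 0.20, edgeR adjusted p = 0.0210). It was thus higher in SD at noon and lower by less than 2-fold before dawn, and its peak came at 8.83 ± 0.646 h in SD and 3.64 ± 0.674 h in LD. *OsFAD7* (LOC_Os03g18070), a fatty acid desaturase of plastids, had 94.7 and 98.4 CPM in SD anthers at 08:00, against 39.4 and 33.3 CPM in LD anthers (log2FC 1.29 ± 0.16, edgeR adjusted p = 0.00256), with peaks at 6.67 ± 0.652 h in SD and 3.47 ± 0.729 h in LD. The lipid transfer protein family gene LTPL124 (LOC_Os04g52260) peaked at 12.8 ± 0.477 h in SD and 9.80 ± 0.616 h in LD. It had 32.4 and 49.8 CPM in SD anthers at 12:00, against 17.4 and 21.9 CPM in LD anthers (log2FC 0.77 ± 0.24, edgeR adjusted p = 0.0310), and 2.89 and 1.07 CPM in SD anthers at 04:00, against 6.70 and 5.80 CPM in LD anthers.

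Both named aquaporins peaked later in SD, and the named transporters peaked later or earlier. The aquaporin LOC_Os07g26690 was named for its later SD peak and *OsPTR9/OsNPF8.20* for its earlier one. Nothing is therefore read from the direction of either, or about the classes. The aquaporin LOC_Os07g26690 had 199 and 176 CPM at 04:00, 300.3 and 304 by 08:00, and 419 and 481 by 12:00 in SD anthers. In LD anthers it had 593 and 554 CPM at 04:00, 475 and 357 by 08:00, and 131 and 217 by 12:00. The level was thus highest at 12:00 in SD and at 04:00 in LD, and the peak differed by 5.57 ± 0.916 h. It was up-regulated in SD at 12:00 (log2FC 1.07 ± 0.28, edgeR adjusted p = 0.0156) and down-regulated at 04:00 (log2FC −1.79 ± 0.14, edgeR adjusted p = 0.00251). The aquaporin *RWC3/OsPIP1;3* (LOC_Os02g57720) also peaked later in SD, at 10.2 ± 0.632 h against 7.31 ± 0.701 h in LD, and was lower in SD over the day (log2FC −0.61 ± 0.15, edgeR adjusted p = 0.00219). The transporter family gene LOC_Os03g43720 peaked 2.09 ± 0.647 h later in SD, with 37.2 and 40.5 CPM in SD anthers at 12:00, against 16.0 and 14.1 CPM in LD anthers (log2FC 1.09 ± 0.12, edgeR adjusted p = 0.000428). *OsPTR9/OsNPF8.20* (LOC_Os06g49250), of the nitrate and peptide transporter family, peaked earlier in SD, with a difference of −2.70 ± 0.813 h. It had 20.6 and 18.7 CPM in SD anthers at 12:00, against 4.93 and 4.08 CPM in LD anthers (log2FC 1.85 ± 0.17, edgeR adjusted p = 0.000208), and 14.8 and 19.5 CPM in SD anthers at 20:00, against 13.2 and 11.9 CPM in LD anthers, so that the SD libraries were high at noon and the LD libraries were not.

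An O-methyltransferase, a peroxidase precursor and a dehydrogenase were among the 5 described members named for the largest decrease in SD over the day. The O-methyltransferase LOC_Os10g02880 had 22.0 and 26.2 CPM in SD anthers at 00:00, against 63.7 and 63.9 CPM in LD anthers (log2FC −1.54 ± 0.23, edgeR adjusted p = 0.0410), and 10.6 and 9.52 CPM in SD anthers at 12:00, against 3.80 and 3.61 CPM in LD anthers (log2FC 1.16 ± 0.19, edgeR adjusted p = 0.00233). Its curve was thus flatter in SD, and its peaks, at 1.33 ± 0.329 h in SD and 0.545 ± 0.504 h in LD, differed by 0.782 ± 0.601 h. The peroxidase precursor LOC_Os01g16450 peaked at 21.5 ± 0.619 h in SD and 22.3 ± 0.678 h in LD, and had 29.4 and 32.9 CPM in SD anthers at 04:00, against 69.7 and 70.5 CPM in LD anthers (log2FC −1.34 ± 0.13, edgeR adjusted p = 0.00306). The dehydrogenase LOC_Os10g07229 peaked at 17.7 ± 0.597 h in SD and 22.5 ± 0.607 h in LD. It had 8.49 and 8.24 CPM in SD anthers at 04:00, against 31.0 and 25.7 CPM in LD anthers (log2FC −1.93 ± 0.16, edgeR adjusted p = 0.00251), and its SD and LD libraries overlapped at no night time after 20:00. Averaged over the day, the log2 fold changes of these genes were −0.75, −0.84 and −0.81.

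In 18 members the SD and LD peaks were at least 6 h apart, 11 with the SD peak counted as later and 7 as earlier. Near 12 h the direction is a matter of counting, so these are better described by day and night. In 11 of them the peak fell in the day in SD, between 10.5 and 16.8 h, and in the night in LD. In the other 7 it fell between 1.10 and 2.79 h in SD and between 10.3 and 15.6 h in LD. The peak-to-trough difference of these 18 had a median of 1.27 log2 units in SD and 1.48 in LD. It reached 2.44 at most in SD and 6.23 in LD, and the smaller R2 lay between 0.716 and 0.838. All 18 remained at least 6 h apart in fits to the replicate 1 libraries alone, to the replicate 2 libraries alone and without the 12:00 libraries.

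A description was at hand for 2 of the 18. The Bet v I family gene LOC_Os12g36880, of a class of pathogenesis-related proteins, had 45.1 and 59.2 CPM at 08:00, 145 and 109 by 12:00, 55.7 and 73.8 by 16:00, 22.7 and 43.3 by 20:00, 15.0 and 45.2 by 00:00, and 16.6 and 16.4 by 04:00 in SD anthers. In LD anthers it had 138 and 167 CPM at 08:00, 91.6 and 85.3 by 12:00, 60.4 and 106 by 16:00, 89.5 and 108 by 20:00, 279 and 181 by 00:00, and 224 and 156 by 04:00. It was thus highest at noon in SD and at night in LD, with peaks at 13.1 ± 0.756 h in SD and 2.95 ± 0.689 h in LD. Its level was lower in SD at 04:00 (log2FC −3.70 ± 0.21, edgeR adjusted p = 0.00218), and its SD and LD libraries overlapped at 16:00 but at no other time. The GDSL-like lipase LOC_Os10g25340, of a family of ester hydrolases, had 25.5 and 24.4 CPM at 08:00, 73.1 and 82.9 by 12:00, 54.9 and 44.3 by 16:00, 23.1 and 26.3 by 20:00, 13.7 and 27.2 by 00:00, and 7.68 and 17.1 by 04:00 in SD anthers. In LD anthers it had 4.45 and 3.29 CPM at 08:00, 1.75 and 1.29 by 12:00, 12.4 and 5.25 by 16:00, 12.9 and 7.28 by 20:00, 16.2 and 14.4 by 00:00, and 18.2 and 17.9 by 04:00. Noon was the highest time in SD and the lowest in LD (log2FC 5.41 ± 0.16, edgeR adjusted p = 6.00e-06), with peaks at 14.0 ± 0.678 h in SD and 23.9 ± 0.775 h in LD.

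The farthest members without a description went in both directions. LOC_Os02g48110 had 83.9 and 74.4 CPM in SD anthers at 12:00, against 259.7 and 243 CPM in LD anthers (log2FC −1.95 ± 0.13, edgeR adjusted p = 6.23e-05), and 198 and 171 CPM in SD anthers at 04:00, against 97.8 and 105 CPM in LD anthers (log2FC 0.69 ± 0.14, edgeR adjusted p = 0.0165). It peaked at 1.66 ± 0.751 h in SD and 14.3 ± 0.725 h in LD, and LOC_Os01g70390 at 2.19 ± 0.778 h in SD and 15.2 ± 0.533 h in LD. LOC_Os05g43252 had the opposite order, with 344 and 324 CPM in SD anthers at 12:00, against 111 and 90.4 CPM in LD anthers (log2FC 1.45 ± 0.13, edgeR adjusted p = 0.000193), and peaks at 14.1 ± 0.753 h in SD and 0.0844 ± 0.704 h in LD. LOC_Os08g39150 peaked at 2.11 ± 0.566 h in SD and 11.3 ± 0.544 h in LD, with 23.5 and 22.8 CPM in SD anthers at 12:00, against 108 and 198 CPM in LD anthers (log2FC −3.02 ± 0.33, edgeR adjusted p = 0.000440).

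The rhythms of SD and LD were then tested against each other in the counts, with amplitude and peak time in a single test. The test was edgeR's quasi-likelihood test of both cosine terms by photoperiod, over the 24 libraries. It called 110 of the 200 members (background 23.6% of 24597 genes tested, and 44.5% of the 636 other genes past the minimums), of which 85 peaked later and 25 earlier in SD. Members were chosen for a close cosine fit in these same libraries, which gives this test more power on them than on the background, so nothing is read from their higher share. Of the members called, 10 had peak times within 2 standard errors, and *OsFKF1* was among these (edgeR adjusted p = 0.00163). Among the clock members 5 of 8 were called, the clearest being *OsCCA1/OsLHY* (edgeR adjusted p = 0.000111), and *OsPRR95* was not (edgeR adjusted p = 0.173). Among the photosynthesis members 15 of 21 were called. The count was 73 without the 12:00 libraries of both photoperiods, a choice made after the values were seen. A test of any difference in time course between SD and LD, in a model of the 12 groups, called 159 members (background 48.5% of 25498 genes tested).

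At single time points the members differed most at 12:00, when they were mostly higher in SD. The contrast of SD with LD was not part of the rule and was tested within each time point on its 4 libraries, at an edgeR adjusted p below 0.05 and at least 2-fold. The rule did favour genes with little spread and a wide daily range in these same libraries, which makes a call more likely. Nothing is therefore read from the members' higher share of calls. At 12:00, 120 of 200 members were called (background 40.0%, with 20.4% up-regulated and 19.6% down-regulated), 100 up-regulated and 20 down-regulated in SD, and their median log2 fold change was 1.02, against −0.01 over all genes. At 04:00, 70 members were called (background 15.9%, with 4.11% up-regulated and 11.8% down-regulated), 11 up-regulated and 59 down-regulated in SD, with a median of −0.56 against 0.01. At 08:00, 41 were called (background 17.7%, with 7.30% up-regulated and 10.4% down-regulated), 24 up-regulated and 17 down-regulated in SD, with a median of 0.04 against 0.01. By library totals in place of TMM factors, the median of all genes moved to 0.27 at 12:00, 0.18 at 04:00 and 0.13 at 08:00, and the calls were 17 up-regulated and 47 down-regulated at 04:00, and 31 up-regulated and 10 down-regulated at 08:00.

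Calls in the evening and night were fewer. At 20:00, 23 of 199 members tested were called (background 4.99%, with 1.23% up-regulated and 3.76% down-regulated), 19 up-regulated and 4 down-regulated in SD, and at 00:00, 11 of 199 were called (background 1.56%, with 0.753% up-regulated and 0.804% down-regulated), 7 up-regulated and 4 down-regulated in SD. At 16:00 edgeR called none of the 200 (background 0%), although 103 had an unadjusted p below 0.05, as did 31.0% of all genes tested, and DESeq2 called 44 members (background 6.61%). Single libraries decided several counts. The 08:00 count was 21 without LD 08:00 replicate 2, with the balance turned to 9 up-regulated and 12 down-regulated in SD. The 04:00 count was 29 without LD 04:00 replicate 1, and the 20:00 count was 8 without LD 20:00 replicate 2. The 16:00 count was 52 without LD 16:00 replicate 1, and the 00:00 count was 52 without SD 00:00 replicate 2, with the balance turned to 19 up-regulated and 33 down-regulated in SD. The 00:00 count was 20 without LD 00:00 replicate 1 and 22 without LD 00:00 replicate 2.

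**Figure D5:**
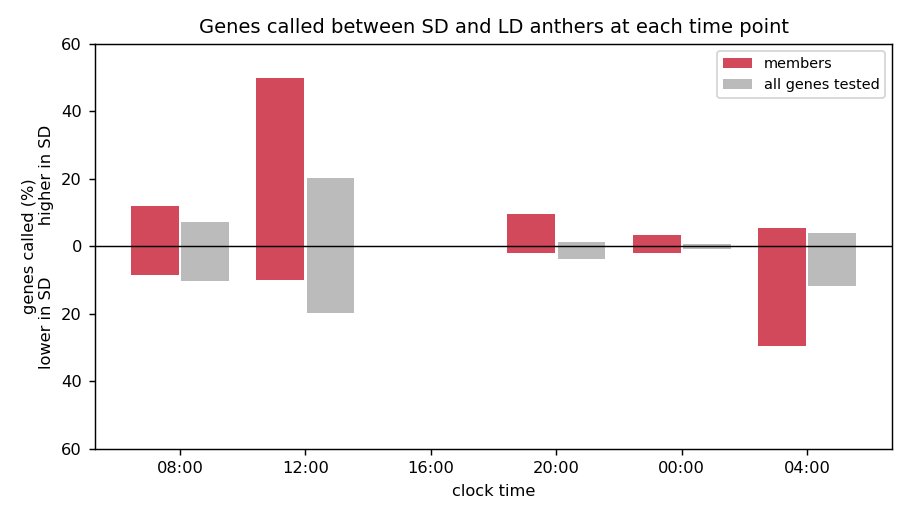
Percent of genes called between SD and LD at each clock time (horizontal axis), for members (red) and for all genes tested (grey). Bars above 0 are genes higher in SD and bars below 0 are genes lower in SD. Members stand above the background most at 12:00 (100 up-regulated) and 04:00 (59 down-regulated), and edgeR called no gene at 16:00. The choice of members favours calls, so nothing is read from their higher share.

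Of the 8 clock members, 3 were up-regulated and 1 was down-regulated in SD at 12:00 (background 20.4% and 19.6%). At 04:00, 3 were up-regulated and 2 were down-regulated (background 4.11% and 11.8%). The calls at 08:00 were 1 in each direction (background 7.30% and 10.4%). In the night samples, 2 were up-regulated and 0 down-regulated in SD at 20:00 (background 1.23% and 3.76%), and likewise at 00:00 (background 0.753% and 0.804%). With 8 genes, nothing is read from these shares. At both night times 7 of the 8 had a higher mean in SD, by library totals and by TMM factors.

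Calls are also given by window of the LD peak, as a description. The LD libraries at 04:00 and 12:00 set the LD peak time and also enter these contrasts, so part of the direction is built into the windows. Among the 55 members with an LD peak from 4 to 8 h, 35 were up-regulated and 2 down-regulated in SD at 12:00 (background 20.4% and 19.6%), and 0 were up-regulated and 25 down-regulated at 04:00 (background 4.11% and 11.8%). Among the 29 members with an LD peak from 16 to 20 h, 10 were up-regulated and 2 down-regulated at 12:00, and 6 were up-regulated and 0 down-regulated at 04:00. In the window from 8 to 12 h, which holds most photosynthesis members, 17 of 49 members tested were up-regulated at 20:00 and 0 down-regulated (background 1.23% and 3.76%).

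Over the whole day, the level of 135 members differed between SD and LD (background 58.4%, and 77.4% of the other genes past the minimums, 29.6% up-regulated and 47.8% down-regulated, edgeR adjusted p below 0.05). Of these, 95 were up-regulated and 40 were down-regulated in SD, with a median log2 fold change of 0.19 over the members and 0.00 over all genes. The largest differences among named members were those of the GDSL-like lipase LOC_Os10g25340 (log2FC 1.88 ± 0.17, edgeR adjusted p = 2.71e-07) and the polygalacturonase LOC_Os05g20020 (log2FC 1.42 ± 0.17, edgeR adjusted p = 4.40e-06), which were higher in SD, and that of the Bet v I gene LOC_Os12g36880 (log2FC −1.70 ± 0.18, edgeR adjusted p = 1.09e-06), which was lower. *OsPRR37* (log2FC 0.98 ± 0.08, edgeR adjusted p = 1.64e-07), the beta-amylase LOC_Os10g41550 (log2FC 0.90 ± 0.10, edgeR adjusted p = 2.23e-06) and *OsCAB1R* (log2FC 0.73 ± 0.10, edgeR adjusted p = 1.74e-05) were also higher in SD.

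The closeness of the cosine and the direction of the difference were also read in replicates that took no part in the choice. Both replicate sets hold the same time points, so a course that does not recur would also appear in both. The share of all loci given below has no peak-to-trough minimum, so it is no like comparison, and no such share was taken for the direction. When 200 genes were chosen by the same rule on the replicate 1 libraries, 85.5% had a smaller R2 of at least 0.5 in the replicate 2 libraries, against 22.3% of all loci with at least 5 CPM, and when they were chosen on replicate 2 the values in replicate 1 were 85.0% and 34.2%. In each direction of this exchange 126 of the 200 genes peaked later in SD in the libraries that had not chosen them, with median differences of 1.25 h and 1.10 h. Among the members, which were chosen on both replicate sets together, 134 peaked later in SD in both replicate sets, 49 earlier in both, and 17 changed direction between them. The peak times of a member in the replicate sets differed by a median of 0.48 h in SD and 0.36 h in LD.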

How the data were processed

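Anthers of variety 9522 were profiled by RNA-seq on the Ion Proton in 24 libraries, 2 for each of 6 time points under SD and LD. Per the study's methods, reads were mapped with MapSplice to the Nipponbare genome with the MSU annotation. The authors deposited whole-number counts per locus, not normalized, in a single table. The counting tool, its use of strand and its handling of reads that map to several loci are not given in the sources used here, so counts of near-identical or overlapping genes are uncertain. Coordinates and sequences were not used here.

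Levels are CPM of the library total, and cosines were fitted by least squares to log2(CPM + 1), with standard errors of peak times by the delta method. Peak differences were taken between −12 and 12 h. Counts were tested with edgeR 4.0.16 in R 4.3.3 (quasi-likelihood test, genes kept by filterByExpr, TMM factors, Benjamini-Hochberg adjustment over all genes tested), within each time point on its 4 libraries, and over 24 libraries for the daily average, the rhythm and the interaction. Fold changes are SD over LD on TMM-scaled counts with standard errors derived from the fold change and its F value, so they need not equal the ratio of the CPM printed. A gene was called at an adjusted p below 0.05, at single time points with a log2 fold change of at least 1 in either direction as well. The scripts were tested on simulated data with known answers. The labels name biological replicates, and p-values measure the spread between these libraries, with counting error given by totals of 18043740 to 27529649. Alternatives were DESeq2 1.42.0, library totals, no fold minimum, a filter of at least 1 count, 1 fit of all libraries, a replicate block, other member numbers, single replicate sets and leaving out each library. Leaving out the 12:00 libraries from the count tests was added after the data were seen.

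Named genes were the members on the circadian sheet, and, among members with an informative name or description, the 10 with the highest smaller R2, the 5 with the latest and the 5 with the earliest SD peaks relative to LD, the 5 called most up-regulated and the 5 most down-regulated over the day, and the 3 with the largest peak-to-trough difference, plus the 2 latest and the 2 earliest members without one. Gene names and lists came from the study's supplementary sheets, of which the ontology sheets were held in part. The study's own fold changes and p-values were not used. The members and lists were chosen with earlier results of these data known.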

Additional observations from a re-analysis of the deposited data

Results flagged for a closer look

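The daily rhythm of 20 of the 26 named members differed between SD and LD in edgeR's test of both cosine terms, with p-values adjusted over all genes tested. The background was 23.6% of all genes tested, and nothing is read from the higher share, because the genes were named in part for a large difference in peak time or a high R2 in these same libraries. Among clock genes, the adjusted p was 0.000111 for *OsCCA1/OsLHY* (LOC_Os08g06110), 0.00163 for *OsFKF1* (LOC_Os11g34460), 0.00245 for *OsGI* (LOC_Os01g08700), 0.0125 for *OsPRR37* (LOC_Os07g49460) and 0.0405 for *OsPRR73* (LOC_Os03g17570). *OsFKF1* had nearly equal peak times and a smaller peak-to-trough difference in SD.

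Among genes of lipid, starch and cell wall metabolism, edgeR gave an adjusted p of 0.000673 for the GDSL-like lipase LOC_Os10g25340, 0.00241 for the acyl carrier protein LOC_Os11g31900, 0.00992 for the beta-amylase LOC_Os10g41550, 0.0104 for LTPL124 (LOC_Os04g52260) and 0.0245 for the polygalacturonase LOC_Os05g20020. For channels and transporters it gave 0.000919 for the aquaporin LOC_Os07g26690, 0.0186 for the transporter family gene LOC_Os03g43720 and 0.0432 for *OsPTR9/OsNPF8.20* (LOC_Os06g49250). For the other described genes, it gave 0.000981 for the Bet v I gene LOC_Os12g36880, 0.00198 for the dehydrogenase LOC_Os10g07229 and 0.0118 for the O-methyltransferase LOC_Os10g02880. The loci without a description had an edgeR adjusted p of 0.000849 (LOC_Os02g48110), 0.000189 (LOC_Os01g70390 and LOC_Os08g39150) and 0.000629 (LOC_Os05g43252).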

How the results depend on the processing

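The median difference in peak time stayed between 1.10 and 1.73 h under each alternative run. None of these moved the LD clock times by the 4 h in doubt. The count of members with a later SD peak was 75 among the 100 genes of highest smaller R2 and 244 among 400, and 140 to 147 of 200 when single libraries were left out. Called members at 08:00 numbered 64 with no fold minimum, and 21 to 45 leaving out single libraries. At 04:00 they numbered 121 with no fold minimum, and 29 to 75 leaving out single libraries. At 16:00 they numbered 44 with DESeq2, 45 with the filter of at least 1 count, 50 in 1 fit of 24 libraries, and 0 to 52 leaving out single libraries. At 00:00 they numbered 38 with DESeq2, 19 by library totals, 25 with at least 1 count, 42 in 1 fit of 24 libraries, and 15 to 52 leaving out single libraries. At 12:00 and 20:00 the ranges without single libraries were 117 to 126 and 8 to 33, for the daily average 127 to 140, and for the rhythm 96 to 120. The rhythm count was 73 without the 12:00 libraries, an alternative chosen after the data were seen. With the replicate number as a block, members called were 38 at 08:00, 121 at 12:00, 49 at 16:00, 17 at 20:00, 42 at 00:00, 68 at 04:00, 135 for the average and 107 for the rhythm. Deviations of same-numbered libraries correlated between −0.319 and 0.339, so the numbers are not taken as pairs. With 2 libraries a group, 1 library can decide the evening and night counts, and the cause was not tested. Of 780 recomputed peak differences of single named genes, 11 moved by more than their standard error. The median over all members kept its sign. The balance of calls in SD turned to 9 up-regulated and 12 down-regulated at 08:00 without LD 08:00 replicate 2, and at 00:00 to 19 and 33 without SD 00:00 replicate 2. At 00:00 it was equal with DESeq2 (19 and 19), in 1 fit of 24 libraries (21 and 21), with the block (21 and 21) and without LD 00:00 replicate 1 (10 and 10).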
